A study of Schizosaccharomyces pombe with 40 samples.

Results

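The comparison described here is the deletion of eaf1 against wild type in fission yeast, Schizosaccharomyces pombe, strain ED666, read in poly(A) RNA. It takes 3 eaf1Δ libraries and 3 wild-type libraries, and 6145 of the 7013 genes in the deposited table passed the filter on low values and were tested. The series holds 40 samples, of which 17 are RNA libraries, and its title places the yeast ELL protein in a small form of the super elongation complex. The eaf1Δ cells were h+ with the eaf1 gene replaced by kanMX6, and both genotypes carried ade6-M210, ura4-D18 and leu1-32. The wild-type cells were h+ with the 3 auxotrophic alleles alone. Cells grew to mid-log phase at 32 °C in rich YES medium with supplements at 225 µg/ml. The ell1Δ libraries used beside them (2, also h+ ED666, ell1 replaced by kanMX6) have 2 wild-type libraries of their own, and this set carries a suffix b in its labels and is called ED666b. The model also held 2 ell1Δ libraries (natMX6 in place of ell1) and 2 wild-type libraries of the h- strain Pem2 (with smt0, mat1_m-cyhS, rpl42::cyhR(sP56Q) and the same 3 auxotrophic alleles), which entered the filter and the shared estimate of spread and no comparison given here.

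ELL is a transcription elongation factor that binds RNA polymerase II and raises its rate along the gene, and EAF is its binding partner, known from yeast to animals. In fission yeast the pair forms a complex with another protein, Ebp1 (ELL-binding protein). In animals ELL and EAF work inside the super elongation complex together with other elongation factors.

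Values are scaled CPM, the authors' signal per gene, where every entry equals whole reads multiplied by a constant of its library. The eaf1Δ libraries held 7268556, 9193169 and 9061213 reads, and the wild-type libraries 6886021, 7027226 and 6486554. The ED666b libraries were deeper, at 38150862 to 43374049 reads, as were the Pem2 libraries, at 35337271 to 40796006. Both sets enter the shared estimate of spread. That estimate may therefore be too small for low RNAs in the 6 compared libraries, which was not tested. The detection floor, set at 3 reads, was worth 0.335 to 0.456 scaled CPM in these libraries, which covers counting error only. Wild-type replicate 3 stood apart. Its 10 most abundant genes took 6.28% of its reads, against 8.62% and 7.86% in wild-type replicates 1 and 2. The meiotic regulator mei2 was at 5.72, 4.24 and 3.71 scaled CPM in eaf1Δ, and at 9.42, 6.39 and 189.51 in wild type. The hexose transporter gene ght5 was at 123.44, 77.91 and 76.99 in eaf1Δ, and at 128.62, 70.78 and 947.95 in wild type. Neither gene was called. Nothing in the labels says that replicates came from separate cultures, and the p-values cover no more than the variation among these libraries, which may be technical.

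The h+ label was read against mating-type genes. The genes of P cells, map2, map3 and sxa1, summed to 357.75 to 496 scaled CPM in eaf1Δ and to 473 to 549 in wild type. The M-cell genes summed to 129 to 135 in eaf1Δ and to 137 to 152 in wild type. Of those, the cassette genes mat1-Mc and mat1-Mi had 0 reads in all 6 libraries. The pheromone gene mfm1 averaged 0.633 in eaf1Δ and 0.717 in wild type. Other M-cell genes were well above the floor. In eaf1Δ mam1, mam3 and sxa2 averaged 46.2, 44.0 and 32.8, and in wild type 50.7, 48.5 and 32.5. The P-cell sum was mostly sxa1, which averaged 412 in eaf1Δ and 479 in wild type. The P-cell genes map2 and map3 averaged 6.72 and 23.5 in eaf1Δ, and 6.07 and 32.3 in wild type.

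The deleted gene fell but its reads did not disappear. The gene eaf1 (SPCC1223.10c) was at 22.3, 19.0 and 22.0 scaled CPM in eaf1Δ, against 56.8, 48.5 and 43.4 in wild type. All 3 deletion libraries lay below all 3 wild-type libraries, and the log2 fold change was −1.19 ± 0.10 (SE; limma on log2(scaled CPM + 1), Benjamini-Hochberg adjusted p = 0.000438). Which part of the gene the remaining reads come from cannot be read from a table of gene sums. Its partners were not called. The gene ell1 was at 83.7, 83.6 and 83.7 in eaf1Δ and at 75.02, 75.09 and 104 in wild type, and ebp1 was at 62.9, 67.4 and 60.9 in eaf1Δ and at 61.2, 66.3 and 79.6 in wild type. The 6 genes next to eaf1 in the annotation's order, 3 on each side, had log2 fold changes between −0.53 (SPNCRNA.1237) and 0.38 (uro1), and none was called.

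Across all genes, few RNAs changed, and those that rose were mostly noncoding. Of 6145 genes tested, 52 were called at an adjusted p under 0.05, which is 0.846%. Of these, 35 rose (0.57% of the genes tested) and 17 fell (0.277%), eaf1 included. Among the 35 that rose, 21 were RNAs annotated as antisense to a gene, 5 were other noncoding RNAs, 7 were coding genes, 1 was the spliceosomal snRNA snu5 and 1 was a ribosomal RNA. Among the 17 that fell, 10 were coding, 3 were antisense RNAs and 4 were other noncoding RNAs. Only 10 of the risen and 7 of the fallen genes reached a fitted change of 2-fold. The 3 deletion libraries lay outside the range of the 3 wild-type libraries for all 52. That separation is common in the background, since all 3 eaf1Δ libraries lay above all wild-type libraries for 7.24% of genes tested and below them for 7.7%.

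The size of this list depended on single libraries and on the model. Without eaf1Δ replicate 3 it held 11 genes, without eaf1Δ replicate 2 it held 19, without wild-type replicate 1 it held 32, and without wild-type replicate 3 it held 79. A fit of the 6 libraries alone called 11, edgeR's quasi-likelihood test on recovered reads called 25 and DESeq2 called 123. In DESeq2 the fallen genes outnumbered the risen ones, with 69 fallen and 54 risen. The calls of 8 genes were kept whichever of the 6 libraries was left out: SPAC750.01, ftm4, SPAC750.06c, eaf1, abp2, SPNCRNA.820, SPNCRNA.1206 and SPNCRNA.1454.

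**Figure D1:**
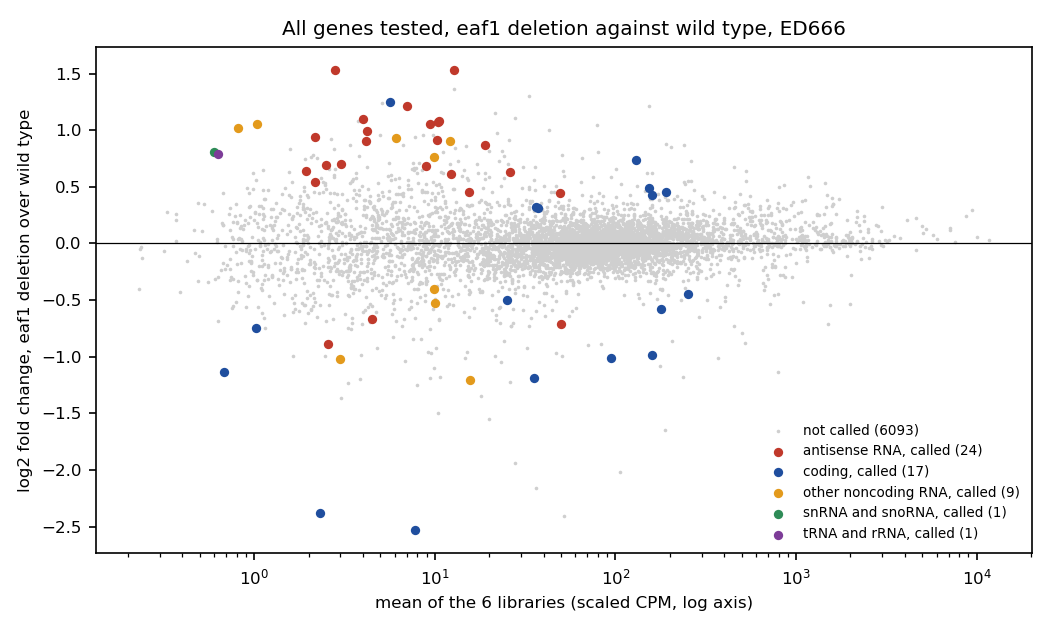
Mean level of the 6 libraries (scaled CPM, log axis) against the log2 fold change of eaf1 deletion over wild type for the 6145 genes tested, with the 52 called genes coloured by class. The 24 called antisense RNAs lie mostly above 0, and the lowest called points are the coding genes SPAC750.01 and ftm4.

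RNAs annotated as antisense were 21 of the 35 risen in the limma fit of all libraries and 20 of the 54 risen in DESeq2. In DESeq2, 20 of 564 antisense RNAs rose and 5 fell, and 25 of 4962 coding genes rose and 55 fell. In the limma fit, 21 of 564 antisense RNAs rose (3.72%) and 3 fell (0.532%), whereas 7 of 4962 coding genes rose (0.141%) and 10 fell (0.202%). The median log2 fold change of all 564 was −0.01, the same to the second decimal as over all genes tested. All 3 deletion libraries lay above all wild-type libraries for 77 antisense RNAs, or 13.7%, and below them for 49, or 8.69%. Without wild-type replicate 3 the median of antisense RNAs was 0.08, and all deletion libraries lay above the 2 remaining wild-type ones for 27.5% of antisense RNAs, beside 14.1% of all genes. Without wild-type replicate 1 the median was −0.05. Antisense RNAs rose at both levels of abundance, 12 of 321 at a mean of 5 scaled CPM or more and 9 of 243 below it. The count of risen antisense RNAs was 5 without eaf1Δ replicate 3, 7 without eaf1Δ replicate 2, 13 without eaf1Δ replicate 1, 10 without wild-type replicate 1 and 35 without wild-type replicate 3. It was 10 in edgeR, 20 in DESeq2 and 3 when the 6 libraries were fitted alone. The count of risen coding genes was 4, 25 and 0 in these, and 12 without eaf1Δ replicate 1. The sources used here do not state if the authors' counting used strand, and reads of an antisense RNA and of its overlapping partner cannot be told apart by these counts.

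The RNA with the most reads among the 2 largest rises was SPNCRNA.1211, antisense to the hydrolase gene SPCC777.06c. It was at 19.8, 19.2 and 19.6 scaled CPM in eaf1Δ, against 5.62, 6.99 and 5.79 in wild type. The deletion libraries were nearly alike and far above every wild-type library, with a log2 fold change of 1.53 ± 0.22 (SE, adjusted p = 0.0131). Its partner SPCC777.06c averaged 145 ± 3.73 in eaf1Δ and 155 ± 7.95 in wild type (SD, n = 3 each) and was not called (log2 fold change −0.10).

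SPNCRNA.820 lies antisense to kap114, which encodes a karyopherin, a carrier of nuclear import. It was at 4.88, 5.13 and 3.82 in eaf1Δ, against 0.456, 1.49 and 0.988 in wild type. Wild-type replicate 1 was at its floor of 3 reads, and every deletion library was above every wild-type one (log2 fold change 1.53 ± 0.21). The partner kap114 averaged 146 ± 4.76 in eaf1Δ and 141 ± 4.10 in wild type (SD, n = 3 each), a change of 0.06 that was not called.

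The RNA antisense to rng9, SPNCRNA.1627, was at 10.5, 10.5 and 9.22 in eaf1Δ, against 4.10, 2.23 and 5.51 in wild type. The wild-type libraries were spread by more than 2-fold and stayed below the deletion libraries (log2 fold change 1.22 ± 0.21, adjusted p = 0.0295). Here the partner moved the other way. The level of rng9 was 22.7, 18.8 and 20.5 in eaf1Δ, against 31.1, 28.6 and 28.7 in wild type. It fell by 0.50 on the log2 scale (SE 0.08, adjusted p = 0.0267), with no overlap between the groups. Of the 6 fits that left out a library, 2 kept the call of SPNCRNA.1627 and 3 that of rng9. The gene rng9 was not called by edgeR.

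The RNAs antisense to atg1801 and atg1803, paralogous autophagy genes, both rose. SPNCRNA.560 was at 14.5, 15.9 and 13.6 in eaf1Δ, against 7.44, 7.43 and 4.66 in wild type. SPNCRNA.1020 was at 6.28, 5.69 and 5.51 in eaf1Δ, against 2.89, 1.93 and 1.84 in wild type. In each pair the lowest deletion library was above the highest wild-type library, and the log2 fold changes were 1.08 and 1.10. The protein-coding partners were not called, with changes of −0.15 for atg1801 and 0.10 for atg1803.

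SPNCRNA.1454, antisense to SPBC19C2.10, had the smallest adjusted p of the risen RNAs. It was at 14.8, 13.5 and 15.3 in eaf1Δ, against 6.38, 6.10 and 6.64 in wild type, and both groups were tight (log2 fold change 1.07 ± 0.10, adjusted p = 0.000648). SPNCRNA.1206, antisense to the nuclear pore basket gene nup211, was as even, at 13.0, 13.3 and 13.0 in eaf1Δ, against 5.31, 5.65 and 6.496 in wild type (log2 fold change 1.051 ± 0.13, adjusted p = 0.0106). These 2 were called under all 17 alternatives.

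SPNCRNA.707 is antisense to crn1, which encodes the actin-binding protein coronin, and was at 6.83, 4.46 and 6.52 in eaf1Δ, against 2.13, 2.53 and 2.68 in wild type (log2 fold change 0.995). SPNCRNA.1487, antisense to the DNA glycosylase gene mag2, was at 15.2, 11.6 and 14.2 in eaf1Δ, against 7.74, 7.73 and 5.08 in wild type (0.91). Neither overlapped between groups. The partner mag2 itself was barely present, with means of 0.373 in eaf1Δ and 0.344 in wild type.

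SPNCRNA.1247, antisense to SPCC18.03, is the pair in which both members rose. The antisense RNA was at 5.86, 5.02 and 6.29 in eaf1Δ, against 3.04, 2.68 and 2.12 in wild type (log2 fold change 0.90, adjusted p = 0.0345), and SPCC18.03 was at 170.30, 199.79 and 182 in eaf1Δ, against 145, 138 and 127 in wild type (0.43, adjusted p = 0.0404). The call of SPNCRNA.1247 was lost in each of the 6 fits that left out a library, and that of SPCC18.03 was kept in 1 of them.

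The other 11 antisense RNAs that rose had log2 fold changes from 0.44 to 0.94. Their partners include the NuA4 subunit gene tra2 (antisense RNA 0.94), the condensin gene cut3 (0.70), the TFIID subunit gene taf73 (0.64), the cyclin-dependent kinase gene cdc2 (0.54), the ESCRT ATPase gene vps4 (0.46) and the splicing gene cwf19 (0.44). None of these 6 partner genes was called. Over all 21 pairs the partner's log2 fold change had a median of 0.03 and ran from −0.50 to 0.43, with 13 partners above 0 and 8 below, and rng9 and SPCC18.03 were the 2 called. Over all 538 antisense RNAs with a tested partner, the partner's median was 0.00, and 4 partners were called.

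Only 3 antisense RNAs fell. SPNCRNA.716, antisense to SPAC56F8.12, was at 42.3, 35.5 and 34.6 in eaf1Δ, against 62.7, 53.2 and 69.9 in wild type (log2 fold change −0.71 ± 0.12). SPNCRNA.1508 runs antisense to iws1, which encodes a transcription elongation factor that binds Spt6, and was at 3.63, 3.13 and 2.92 in eaf1Δ, against 5.77, 6.84 and 4.66 in wild type (−0.67 ± 0.13). SPNCRNA.1410, antisense to chs2, averaged 1.49 in eaf1Δ and 3.61 in wild type (−0.89). Groups did not overlap for any of the 3, and the partners iws1 (0.11) and chs2 (−0.09) were not called.

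Of the other noncoding RNAs, SPNCRNA.911 was at 8.09, 8.04 and 8.77 in eaf1Δ, against 3.64, 3.72 and 4.24 in wild type (log2 fold change 0.94 ± 0.16). SPNCRNA.1190 was at 16.04, 15.7 and 16.9 in eaf1Δ, against 7.59, 8.18 and 8.76 in wild type (0.91 ± 0.17). Every deletion library was above every wild-type library for both, but SPNCRNA.1190 was called in none of the 6 fits that left out a library and SPNCRNA.911 in 1 of them. The rest that rose were SPNCRNA.388 (0.76), SPNCRNA.750 (1.06) and prl61 (1.02). The U5 spliceosomal RNA snu5 held 27 reads in eaf1Δ and 3 in wild type, a ratio of 7.19 with a 95% counting interval of 2.21 to 37.05.

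**Figure D2:**
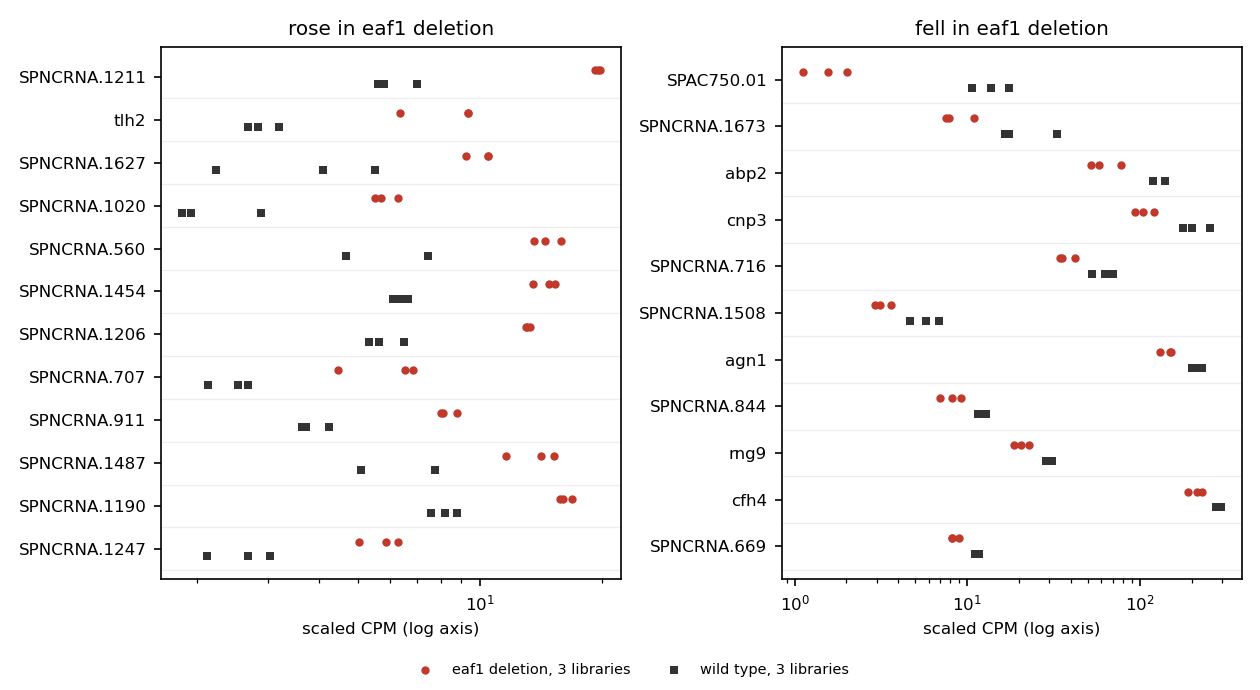
Scaled CPM (log axis) in each library for 12 risen and 11 fallen genes, with eaf1 deletion (circles) above wild type (squares) in each row. Genes are ranked by fold change among called genes whose higher group has a mean of 5 scaled CPM or more, with eaf1 left out. Only genes whose groups do not overlap were ranked, so the circles lie on one side of the squares in every row by selection.

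Few coding genes rose, and most of them by less than 2-fold. The subtelomeric RecQ-type helicase gene tlh2 was the exception, at 9.35, 6.36 and 9.33 scaled CPM in eaf1Δ, against 3.19, 2.68 and 2.82 in wild type. Its deletion libraries were 2-fold or more above the wild-type mean throughout (log2 fold change 1.25 ± 0.18, adjusted p = 0.0123). It has near-identical copies at other chromosome ends, so its reads cannot be assigned to 1 locus with certainty. The nucleotide excision repair gene rhp16, a homologue of budding yeast RAD16, was at 158, 168 and 159.82 in eaf1Δ, against 99.2, 105 and 87.7 in wild type. Each deletion library exceeded every wild-type library, and the change was 0.73 ± 0.10 (adjusted p = 0.012).

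SPAC1002.07c was at 176, 182 and 181 in eaf1Δ, against 124, 122 and 138 in wild type (log2 fold change 0.49 ± 0.08, adjusted p = 0.0192). SPCC663.09c was at 223, 225 and 215 in eaf1Δ, against 170.08, 172 and 143 in wild type (0.45 ± 0.08). Groups were apart for both. The smallest rises were meu18 (0.33) and SPCC576.02 (0.31), each called in 1 of the 6 fits that left out a library.

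The coding genes that fell include genes of cell separation, the step in which the primary septum and the surrounding wall are digested after cytokinesis. The gene agn1, an endo-1,3-alpha-glucanase of that step, was at 149, 151 and 131 in eaf1Δ, against 229.91, 216 and 201 in wild type. It fell by 0.58 on the log2 scale (SE 0.08, adjusted p = 0.0111) with no overlap. The gene cfh4, a chitin synthase regulatory factor by homology, was at 230.14, 216 and 191 in eaf1Δ, against 296, 279 and 292 in wild type, and fell by 0.45 (SE 0.08, adjusted p = 0.0276).

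In a culture, fewer cells that express a gene and less RNA in each cell cannot be told apart. Of 10 genes on the cell separation list, chosen with earlier results of these data known, 2 fell and none rose. Of all genes tested, 0.277% fell. The log2 fold change was negative for 9 of the 10, and the median was −0.31 against −0.01 over all genes tested. For 6 of the 10 all deletion libraries lay below all wild-type libraries, beside 7.7% of all genes. The septin-organizing gene mid2 was at 446, 433 and 415 in eaf1Δ and at 544, 525 and 546 in wild type (−0.32, adjusted p = 0.0588), and adg3 had a change of −0.30 (adjusted p = 0.159); neither passed. Without wild-type replicate 3 the list had 3 fallen genes, beside 23 of all 6145 genes tested, and a median of −0.36. Without eaf1Δ replicate 3 it had 0 calls and a median of −0.26.

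Of 15 cell wall glucan genes none was called by limma or edgeR, and 3 fell in DESeq2. The list's median log2 fold change was −0.03, with 9 negative and 6 positive. All deletion libraries lay below all wild-type libraries for 3 of the 15, beside 7.7% of all genes. In limma 4 were negative at an unadjusted p under 0.05, a threshold met by 805 of all 6145 genes in either direction. In limma 1 fell with a pseudocount of 5, with the replicate block, and without eaf1Δ replicate 1. The GPI-anchored wall gene ecm33 came nearest, at 1788, 1789 and 1336 in eaf1Δ and at 2331, 2250 and 2458 in wild type (−0.53, adjusted p = 0.0517). The glucanase gene exg1 (−0.64, adjusted p = 0.0910) and the glucanosyltransferase gene gas1 (−0.52, adjusted p = 0.101) were also lower in all 3 deletion libraries without passing.

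The largest falls lay side by side at a chromosome end. In the order of the annotation, SPAC750.01, ftm4 (SPAC750.05c) and SPAC750.06c are the last 3 tested genes at the right end of chromosome I, and all 3 fell. SPAC750.01, of the aldo/keto reductase family, was at 1.12, 1.56 and 2.02 scaled CPM in eaf1Δ, against 17.5, 13.7 and 10.7 in wild type (log2 fold change −2.53 ± 0.24, adjusted p = 0.00102). The deletion libraries were low but above the floor, and the groups were far apart. The gene ftm4 had 1 read over the 3 eaf1Δ libraries and 93 over the 3 wild-type libraries, a ratio of 0.00859 with a 95% counting interval of 0.000215 to 0.0491. SPAC750.06c had 1 read in eaf1Δ and 27 in wild type, a ratio of 0.0296 (interval 0.000723 to 0.180). For these 2 genes the deletion group is at or under the floor, so the fitted changes of −2.38 and −1.14 depend on the pseudocount.

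The next genes inward were not called. The neighbour pdc102 had a log2 fold change of −0.23 and SPAC186.08c one of 0.36, and both were under 1 scaled CPM in all 6 libraries. The noncoding RNA prl61, 3 genes inward from SPAC750.01, rose, at 1.81, 1.12 and 1.35 in eaf1Δ, against 0, 0.297 and 0.282 in wild type (log2 fold change 1.02 ± 0.14, adjusted p = 0.0111). Genes of this region have close relatives at other chromosome ends, which the authors' counting may split. Of the outermost 40 annotated genes at each of the other 5 chromosome ends, 17, 27, 24, 28 and 36 were tested. These held 1 call in all, tlh2 at the right end of chromosome II, beside 0.846% called of all genes tested.

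A second run of neighbours fell on chromosome II. The centromere gene cnp3, which encodes the CENP-C homologue, was at 122, 105 and 93.4 scaled CPM in eaf1Δ, against 179, 202 and 257 in wild type (log2 fold change −0.98 ± 0.15, adjusted p = 0.0144). The gene abp2, which encodes a protein that binds replication origin sequences, was at 77.7, 57.8 and 52.5 in eaf1Δ, against 119, 119 and 141 in wild type (−1.01 ± 0.13, adjusted p = 0.0106). For both, the highest deletion library was well under the lowest wild-type library.

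Between them in the annotation stand a pair of noncoding RNAs. SPNCRNA.1673, next to abp2, was at 11.02, 7.81 and 7.53 in eaf1Δ, against 16.6, 17.4 and 33.2 in wild type (−1.20 ± 0.23, adjusted p = 0.0384). SPNCRNA.1672 averaged 0.671 in eaf1Δ and 1.17 in wild type and was not called (−0.38). The flanking genes were not called: mrpl44 beyond cnp3 had a log2 fold change of −0.05 and mak10 beyond abp2 one of 0.04. In the ED666b set, cnp3 was at 291 and 250 in ell1Δ and at 343 and 363 in wild type (−0.39), and abp2 was at 163 and 153 in ell1Δ and at 177 and 193 in wild type (−0.22); neither was called there.

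**Figure D3:**
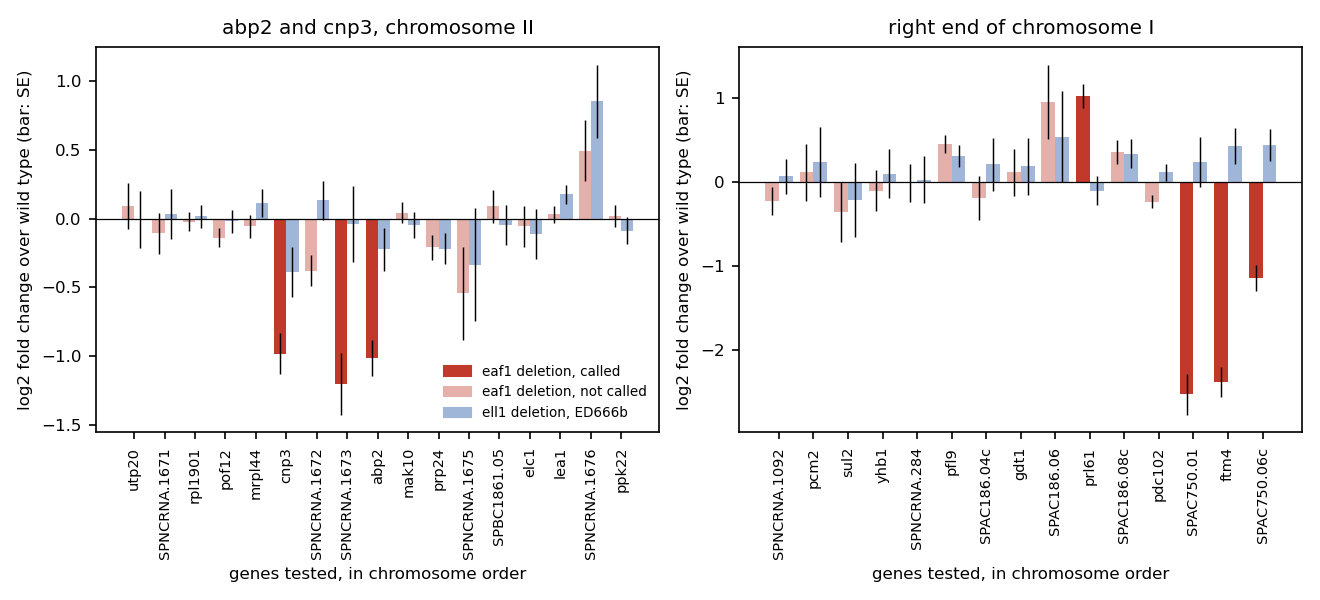
Log2 fold change over the matching wild type, with bars of 1 SE, for tested genes in annotation order around abp2 and cnp3 (left) and at the right end of chromosome I (right), for eaf1 deletion (red, dark where called) and ell1 deletion in ED666b (blue). The falls in eaf1 deletion cover cnp3 to abp2 on the left and the last 3 genes on the right, where the ell1 deletion values are between 0.24 and 0.44.

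The remaining fallen genes were low or changed by less than 2-fold, apart from SPNCRNA.1463 (2.09, 1.45 and 1.35 in eaf1Δ, against 3.95, 4.91 and 4.10 in wild type; −1.02). The alpha-amylase homologue mde5 averaged 0.512 in eaf1Δ and 1.52 in wild type (−0.75). SPNCRNA.844 was at 9.21, 8.15 and 6.97 in eaf1Δ, against 11.7, 11.6 and 12.9 in wild type (−0.52). SPNCRNA.669 was at 8.93, 8.15 and 8.20 in eaf1Δ, against 11.1, 11.5 and 11.7 in wild type (−0.40). Groups did not overlap for these 4, and 1 or 2 of the 6 fits without a library kept each of mde5, SPNCRNA.844 and SPNCRNA.669.

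Of the 35 risen genes, 34 were also higher without ELL and 15 were called there. Of the 17 fallen genes, 12 were also lower without ELL and 1 was called there. The ell1 effect was read from 2 ell1Δ and 2 wild-type libraries of ED666b, which share no library with the eaf1 comparison. Both effects were tested with the shared estimate of spread, so a gene with a small spread is more readily called in both. The ED666b and ED666 sets appear to have been scaled separately, so only changes within each set are compared. Of all genes tested, 0.374% rose and 0.0814% fell in ell1Δ. Of the 35 genes that rose in eaf1Δ, 15 also rose in ell1Δ, which is 42.9% of these 35 and 65.2% of the 23 that rose in ell1Δ. For 34 of the 35 the ell1Δ change was also positive, with medians of 0.81 in eaf1Δ and 0.75 in ell1Δ, and prl61 (−0.10 in ell1Δ) was the exception.

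Among genes shared by both, SPNCRNA.1211 was at 22.1 and 26.8 scaled CPM in ell1Δ, against 5.53 and 5.19 in its wild type (log2 fold change 1.99 ± 0.27). SPNCRNA.1627 was at 15.4 and 14.6 in ell1Δ, against 4.27 and 3.97 in its wild type (1.64 ± 0.26). The repair gene rhp16 was at 229 and 196 in ell1Δ, against 131 and 122 in its wild type (0.74 ± 0.13), and tlh2 was at 3.55 and 6.51 in ell1Δ, against 1.32 and 1.62 in its wild type (1.25 ± 0.22). No gene that rose in eaf1Δ was called for a difference between the eaf1 and ell1 effects. The eaf1 effect minus the ell1 effect was −0.46 ± 0.35 (SE) for SPNCRNA.1211, −0.43 ± 0.33 for SPNCRNA.1627 and −0.01 ± 0.17 for rhp16. The list of ell1Δ calls rests on few libraries, since it held 28 genes and only 5 to 8 when any 1 of its 4 libraries was left out.

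Of the 17 genes that fell in eaf1Δ, 1 also fell in ell1Δ, which is 5.88% of these 17 and 20% of the 5 that fell in ell1Δ. That gene was agn1, at 136 and 141 in ell1Δ, against 212 and 192 in its wild type (−0.54 ± 0.10, adjusted p = 0.0483). The median ell1Δ change of the 17 was −0.19, beside −0.89 in eaf1Δ, and 12 were negative in both. The cell separation list had a median of −0.51 in ell1Δ, and cfh4 was at 183 and 194 in ell1Δ, against 277 and 260.08 in its wild type (−0.51, adjusted p = 0.0506).

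The difference between the effects was called for 8 genes, or 0.13% of those tested, and 4 of these are among the 17 that fell in eaf1Δ. They are eaf1 itself and the 3 genes at the end of chromosome I. SPAC750.01 was at 19.2 and 22.7 in ell1Δ, against 17.9 and 17.2 in its wild type, so that its effects differed by −2.77 ± 0.38 on the log2 scale (eaf1 minus ell1, adjusted p = 0.0213). The difference was −2.81 ± 0.28 for ftm4 and −1.58 ± 0.25 for SPAC750.06c. For abp2 the difference was −0.79 ± 0.20 and for cnp3 −0.59 ± 0.23, neither called.

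**Figure D4:**
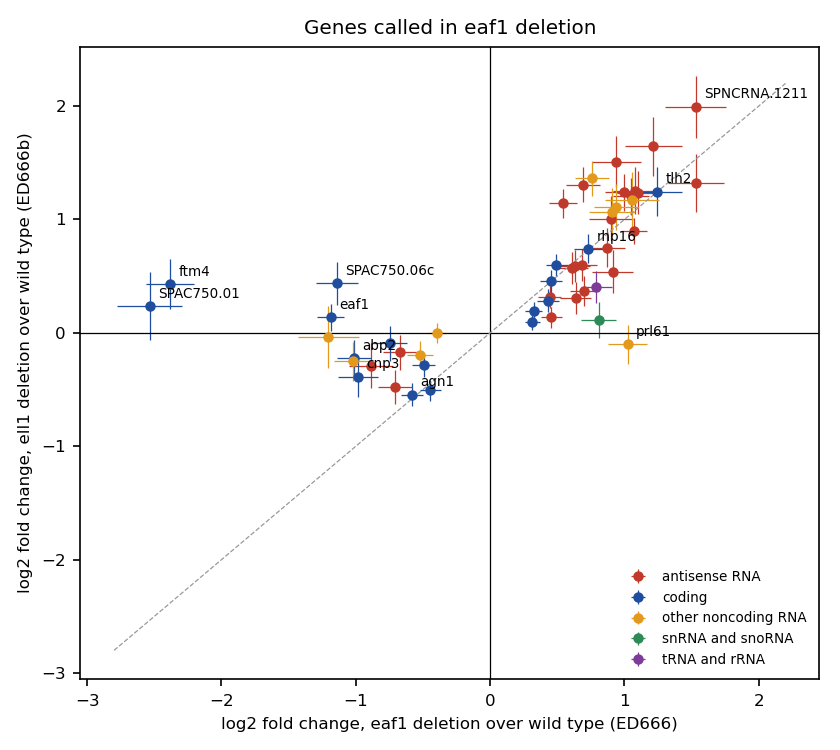
Log2 fold change of eaf1 deletion over wild type (horizontal) against that of ell1 deletion over its own wild type (vertical) for the 52 called genes, with bars of 1 SE and a dashed line of equal change. All risen genes but prl61 lie above 0 on the vertical axis, and the 3 genes at the chromosome I end lie far to the left at ell1 changes of 0.24 to 0.44.

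Genes of transcription itself showed no call in limma, edgeR or DESeq2. The 11 tested RNA polymerase II subunit genes ran from −0.05 to 0.08 in log2 fold change, and 19 elongation factor genes had a median of 0.00. None was called by these tools among 17 genes that repress cryptic transcription, 16 of the Mmi1, MTREC and exosome pathway of RNA decay, or 21 of RNA interference and heterochromatin. In the last list stc1, which links RNAi to the histone methyltransferase complex, was at 22.5, 22.2 and 22.5 in eaf1Δ and at 17.3, 18.7 and 16.1 in wild type, without passing (0.35, adjusted p = 0.0549). At an unadjusted p under 0.05, limma gave 0 polymerase, 1 elongation, 1 cryptic transcription, 2 RNA decay and 3 RNA interference and heterochromatin genes. The same threshold gave 805 of all 6145 genes tested. In the list of RNA interference and heterochromatin 1 gene rose with TMM scaling, with no filter, and without wild-type replicate 2.

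Of 10 histone genes tested, none was called by limma or edgeR and 3 fell in DESeq2. Their median log2 fold change was −0.11, 9 were negative, and 3 of these had an unadjusted p under 0.05 in limma. For 4 of them all deletion libraries lay below all wild-type libraries, beside 7.7% of all genes. The histone H4 gene hhf3 was at 377, 353 and 354 in eaf1Δ and at 471, 456 and 472 in wild type (−0.37, adjusted p = 0.0604), and the histone H3 gene hht1 was at 759, 758 and 765 in eaf1Δ and at 888, 912 and 979 in wild type (−0.28, adjusted p = 0.0683). The respiratory chain list had a median of −0.10 over 59 genes, 51 of them negative. All deletion libraries lay below wild type for 17 of them, beside the same 7.7%. None was called by limma, edgeR or DESeq2, and 5 had an unadjusted p under 0.05 in limma. Of all 6145 genes tested, 805 had such a p.

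Meiotic transcripts that the RNA-binding protein Mmi1 marks for destruction in growing cells all had a positive log2 fold change, and limma and edgeR called none. In limma 6 had an unadjusted p under 0.05, beside 805 of all 6145 genes tested. DESeq2 called 2 risen and the replicate block 1. The 14 tested had a median log2 fold change of 0.47, while their median in ell1Δ was 0.03. The cohesin gene rec8 was at 5.58, 12.7 and 17.5 in eaf1Δ and at 4.40, 3.87 and 7.63 in wild type (0.96, adjusted p = 0.265). The gene mug9 was at 3.49, 7.92 and 11.8 in eaf1Δ and at 1.37, 3.12 and 2.97 in wild type (1.24, adjusted p = 0.137), and mcp7, a meiotic recombination gene, was at 18.7, 29.7 and 38.7 in eaf1Δ and at 15.2, 18.3 and 15.96 in wild type (0.73, adjusted p = 0.177). In each of these, eaf1Δ replicate 3 was the highest library and replicate 1 was close to wild type. Without eaf1Δ replicate 1, 5 of the 14 rose, beside 30 of all 6145 genes tested, and the list's median was 0.72. Without eaf1Δ replicate 3 the median was 0.29, and without wild-type replicate 3 it was 0.61.

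Heat shock chaperone genes had a positive log2 fold change in 13 of 14 cases, with a median of 0.24. None was called by limma, edgeR or DESeq2, and 7 had an unadjusted p under 0.05 in limma. Of all 6145 genes tested, 805 had such a p. All deletion libraries lay above all wild-type libraries for 7 of the 14, beside 7.24% of all genes. The co-chaperone gene sti1 was at 1244, 1255 and 1134 in eaf1Δ and at 974, 961 and 866 in wild type (0.38, adjusted p = 0.224), and hsp78 was at 361, 325 and 282 in eaf1Δ and at 244, 227 and 131 in wild type (0.73, adjusted p = 0.27). Wild-type replicate 3 was the lowest library for both, and without it the list's median was 0.19. Among Tf2 retrotransposons, whose copies are nearly identical, 4 were tested, none was called by limma, edgeR or DESeq2, and 1 had an unadjusted p under 0.05 in limma. Tf2-7 was at 10.6, 11.3 and 12.03 in eaf1Δ and at 5.62, 7.88 and 6.35 in wild type (0.70, adjusted p = 0.115).

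Small nuclear and nucleolar RNAs, which mostly lack a poly(A) tail when mature, were above 0 in 28 of 31 cases, with a median log2 fold change of 0.38 and snu5 as the only call in limma. Without eaf1Δ replicate 3 the median was 0.19 and no call was made, and edgeR and DESeq2 made none. In limma 11 had an unadjusted p under 0.05, beside 805 of all 6145 genes tested. Levels of these small RNAs varied among replicates. The box C/D RNA snu3 was at 12.3, 11.2 and 76.9 in eaf1Δ and at 6.53, 31.1 and 35.4 in wild type. Replicate 3 of eaf1Δ held the most reads of it, and the groups overlapped.

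Gene length did not separate the medians. In 4 equal bins of length the median log2 fold change was −0.01, 0.00, −0.01 and 0.00 from the shortest to the longest genes. Risen genes were 12 and 14 in the 2 shorter bins and 3 and 6 in the 2 longer bins, and fallen genes were 3, 5, 7 and 2. These counts include antisense RNAs. Of coding genes alone, 1, 1, 1 and 4 rose and 2, 3, 3 and 2 fell from the shortest to the longest bin.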

How the data were processed

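Poly(A) RNA libraries of eaf1Δ and wild-type cells were compared. The authors deposited 1 table of 7014 lines with 1 repeated identifier. Its columns headed cpm were treated as a signal (scaled CPM): per the file headers they are CPM, but 100% of values are whole reads times 1 constant per library (tolerance 0.01) and sum to 915972 to 1045682. RPKM values deposited beside them by the authors gave gene lengths only. TopHat2 2.1.1, SAMtools 1.3.1, edgeR and build ASM294v2 stand in the submitters' processing notes; the sources used here do not name the counter, annotation or strand setting. The reference held was a later build, so no coordinates or promoters were used; it gave names, classes and gene order for 6845 of 7013 identifiers. A planned comparison with ebp1Δ was not run, because 6 columns of per-sample values have names that match no label and were not used.

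The filter kept genes that reached 1 scaled CPM in 2 or more of the 14 libraries used, which include 4 of strain Pem2. A limma model (3.58.1, R 4.3.3) of 6 group means was fitted to log2(scaled CPM + 1), a scale that understates changes of low genes, with 8 residual and 2.581 prior degrees of freedom. Tests were two-sided with Benjamini-Hochberg adjustment over all genes, called at 0.05. The script was tested on simulated data. edgeR 4.0.16 and DESeq2 1.42.0 on recovered reads, other pseudocounts, filters, scalings, a replicate block and leaving out each library were alternatives. Any called gene could be named; library values are given for up to 12 risen and 12 fallen called genes with the largest changes, non-overlapping groups and a mean of 5 scaled CPM or more, for partners of antisense RNAs, and for up to 4 genes with the smallest p per list. Values of other called genes, mei2, ght5 and snu3 were chosen after they were seen. Members and gene lists were chosen with earlier results of these data known.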

Additional observations from a re-analysis of the deposited data

Results flagged for a closer look

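The effect of deleting eaf1 differed from that of deleting ell1 for 8 genes by limma's test of the difference (Benjamini-Hochberg adjusted p under 0.05). The differences, eaf1 effect minus ell1 effect on the log2 scale, were −2.81 for ftm4, −2.77 for SPAC750.01 and −1.58 for SPAC750.06c, the last 3 tested genes of chromosome I. They were −1.32 for eaf1 and 2.03 for ell1, the deleted genes themselves. SPNCRNA.847 gave −1.49, from an uncalled −0.48 in eaf1Δ and a rise of 1.01 in ell1Δ. The proteasome gene rpn501 gave 4.75 and the cytochrome oxidase assembly gene cox1101 gave 2.04, both of which fell in ell1Δ and were not called in eaf1Δ (0.04 and −0.37). In Pem2, cox1101 was at 6.17 and 5.61 scaled CPM in ell1Δ and at 6.15 and 5.91 in wild type, and rpn501 at 0.548 and 0.564 in ell1Δ and at 0.891 and 0.564 in wild type. In ED666b, cox1101 was at 0.211 and 0.449 in ell1Δ and at 5.66 and 6.49 in wild type, and rpn501 at 0.822 and 0.497 in ell1Δ and at 43.3 and 41.04 in wild type. Both have close paralogues, so their counts are uncertain. The paralogue rpn502 rose in ell1Δ (0.62, limma adjusted p = 0.0304) and had a change of 0.01 in eaf1Δ. The identifiers of rpn501 and cox1101, SPAC1420.03 and SPAC1420.04c, are consecutive, so their 2 differences may come from 1 locus, which was not tested.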

How the results depend on the processing

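The 52 calls (35 risen, 17 fallen) were 11 (7 risen, 4 fallen) with the 6 compared libraries fitted alone, 25 (14 risen, 11 fallen) in edgeR and 123 (54 risen, 69 fallen) in DESeq2; the cause was not tested. Leaving out 1 library gave 11 to 79 calls, with 5 to 56 risen and 6 to 23 fallen. Of the 52 genes, 5 were called under all 17 alternatives. No named gene that was called changed direction under an alternative, but without eaf1Δ replicate 3 the fallen calls (6) outnumbered the risen ones (5). Without wild-type replicate 3 the medians of the ribosome biogenesis and hexose uptake lists were −0.02 and −0.03. The 8 calls for the difference of effects were 5 with a pseudocount of 5, and 4 to 9 with 1 library left out. The 28 ell1Δ calls were 90 in DESeq2, and 5 to 8 with 1 library left out. With a replicate block on the numbers 1 to 3 there were 57 calls, 40 of them shared with the unblocked fit. Deviations of same-numbered libraries correlated at 0.23, 0.14 and 0.05. The same number was the best match for eaf1Δ replicates 1 and 2, while eaf1Δ replicate 3 correlated best with wild-type replicate 2 (0.21). Deviations from a mean of 3 libraries depend on one another, so these values cannot settle if the numbers are pairs. The main fit did not take them as pairs. A planned fit of the ED666 libraries without suffix b equals that of the compared libraries alone, and the alternatives of the eaf1Δ against ebp1Δ comparison were not run. Counts by list and class without wild-type replicate 3 were added after seeing the data. Depth limits genes near 3 reads.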

Other observations

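Other lists without a call by limma or edgeR included flocculin genes and their regulators. Of these 11, 3 had an unadjusted p under 0.05 in limma, beside 805 of all 6145 genes tested. In DESeq2 and, in limma, without eaf1Δ replicate 1, 1 of the 11 rose. All eaf1Δ libraries lay above all wild-type libraries for 4 of the 11, beside 7.24% of all genes, and the list's median log2 fold change was 0.31, or 0.05 without wild-type replicate 3. The flocculin gene pfl5 was at 31.2, 30.2 and 32.9 scaled CPM in eaf1Δ, against 22.2, 16.5 and 18.6 in wild type (log2 fold change 0.70, limma with Benjamini-Hochberg adjusted p = 0.133). Ribosome biogenesis genes were above 0 in 54 of 63 cases and amino acid synthesis genes in 29 of 31, with medians of 0.12 and 0.17. Without wild-type replicate 3 these medians were −0.02 and 0.00. No call was made in these lists by limma, edgeR or DESeq2, and 2 and 0 genes had an unadjusted p under 0.05 in limma. Wild-type replicate 3 was the lowest library for most of the genes with the smallest p in both lists, with lys7 an exception: arg4 was at 937, 1036 and 1013 in eaf1Δ, against 856, 872 and 449 in wild type. The stress gene rds1 was at 147, 66.8 and 66.8 in eaf1Δ, against 309.63, 187 and 358 in wild type (−1.65, adjusted p = 0.113), without passing. Its list of 18 core stress genes had 6 with an unadjusted p under 0.05 in limma, 2 positive and 4 negative, and 2 fell in DESeq2.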
